A study of Mus musculus with 6 samples.

Results

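The transcript of Trp53, which encodes the tumour suppressor p53, was followed together with those of 9 genes of its pathway in 4T1 mammary tumours: Cdkn1a, Cdkn2a, Mdm2, Ccng1, Phlda3, Eda2r, Bax, Bbc3 and Trp53inp1. The 10 genes were taken by name from the 23381 gene symbols with deposited RPKM (a read count scaled to gene length in kilobases and to the library's total), in all 6 tumour libraries. Cells of 4T1, a mammary carcinoma line of Balb/c origin, were injected into an inguinal mammary fat pad of Balb/c mice, 500000 cells per injection, and the labels give the mice as 10 weeks old. Once tumours had formed, 1 group received DMSO, the vehicle, and the other received Vismodegib, an inhibitor of the Hedgehog signal transducer Smoothened, at 2 mg per mouse, both 3 times a week for 3 weeks. Each group had 3 libraries of whole tumour RNA, numbered as replicates 1 to 3 in their titles. Whether each library had an animal of its own is not stated in the labels, and p-values then rest on the spread among these samples, which may be technical. Library totals recovered from the steps between low values were 34800000 to 58000000 reads.

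In unstressed cells p53 protein is kept low by Mdm2, a ubiquitin ligase whose own gene p53 activates, and the Arf product of Cdkn2a relieves this by binding Mdm2. Stabilised p53 activates Cdkn1a, which stops the cell cycle, and a group of genes that act in apoptosis and survival signalling, among them Bax, Bbc3, Phlda3, Eda2r and Trp53inp1. Much of this control acts on the p53 protein, which RNA values do not measure. The 4T1 line is commonly described as lacking functional p53, while the host cells of a tumour carry the mouse's own Trp53. RPKM values of a whole tumour add both sources, and in such bulk samples fewer cells of a type and less RNA per cell cannot be told apart.

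Start-site windows of Cdkn1a, Bbc3 and Trp53 are shown because they hold a pair of short cores spaced as in the sequence element that p53 binds. The bases around the cores were not compared with that element. The RefSeq table (GRCm38.p6 build) gave 13 windows of 300 bases, from 250 before to 50 after a start site. They covered 9 of the 10 genes, all except Trp53inp1. The search took a core of 4 letters (CATG itself, or CTAG, or else CAAG or its reverse complement CTTG), then 6 bases of any kind, then a core again; it reads the same on both strands and allows no spacer between the sites. The cores and the bases between them are in capitals, and each window is written 5′ to 3′ on the plus strand, on which all 3 genes lie.
Cdkn1a, upstream start, chr17:29090729-29091028: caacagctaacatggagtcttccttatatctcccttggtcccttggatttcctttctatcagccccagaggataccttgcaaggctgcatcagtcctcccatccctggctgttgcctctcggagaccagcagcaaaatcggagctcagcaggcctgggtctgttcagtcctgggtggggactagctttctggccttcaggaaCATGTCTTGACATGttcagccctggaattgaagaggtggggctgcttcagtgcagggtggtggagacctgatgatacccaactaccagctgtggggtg
Bbc3, upstream start, chr7:16309333-16309632: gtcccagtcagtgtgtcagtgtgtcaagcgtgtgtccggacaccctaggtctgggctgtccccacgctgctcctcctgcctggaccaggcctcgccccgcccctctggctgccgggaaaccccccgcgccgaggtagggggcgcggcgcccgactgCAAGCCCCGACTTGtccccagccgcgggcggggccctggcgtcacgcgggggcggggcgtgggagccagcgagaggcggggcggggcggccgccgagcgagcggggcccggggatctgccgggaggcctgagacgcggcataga
Trp53, chr11:69580109-69580408: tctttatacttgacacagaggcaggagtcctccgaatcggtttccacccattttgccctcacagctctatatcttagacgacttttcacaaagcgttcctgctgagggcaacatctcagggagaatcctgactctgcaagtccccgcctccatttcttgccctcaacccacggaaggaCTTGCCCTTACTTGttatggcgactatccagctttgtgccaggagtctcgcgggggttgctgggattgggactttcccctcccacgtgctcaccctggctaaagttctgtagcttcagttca
The Cdkn1a match is the only 1 of the 3 in which both cores are CATG, and it begins 48 bases before a start site that lies 2790 bases upstream of the gene's other annotated start. The Bbc3 match begins 94 bases and the Trp53 match 72 bases before the start. Of all 32851 windows of this length, 7.22% held such a pair of cores and 0.712% a pair of CATG cores. A match describes letters only, and a window without a match (the other Cdkn1a start, 2 other Bbc3 starts, both Cdkn2a starts, Bax, Ccng1, Eda2r, Mdm2 and Phlda3) says only that these letters are not in it.

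None of the genes rose or fell with treatment by the test used, and the treated and control libraries overlapped in every gene. Values of log2(RPKM + 0.5) were fitted with limma over the 11818 genes whose mean reached 0.5 RPKM; 9 of the 10 genes were in this fit and Eda2r was not. Of the 9, 0 were called at an adjusted p under 0.05, where 0 of 11818 genes (0.0%) were, and 0 had an unadjusted p under 0.05, where 266 genes (2.25%) did. In 0 of the 10 genes did the groups fail to overlap, against 595 of the 11818 tested genes (5.03%). Differences, Vismodegib minus DMSO, were above 0 in 3 of the 9 genes and below 0 in 6, with a median of -0.10, while 58.4% of all tested genes were above 0 and 41.6% below, with a median of 0.05. The 95% intervals of the 9 differences reached from -1.19 at the lowest bound to 1.05 at the highest, and each of them held 0; a p that misses the threshold does not show that the levels were equal. Two-sided exact permutation tests of the 10 genes gave p between 0.2 and 1; with 3 libraries a side, p cannot go below 0.1.

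**Figure D1:**
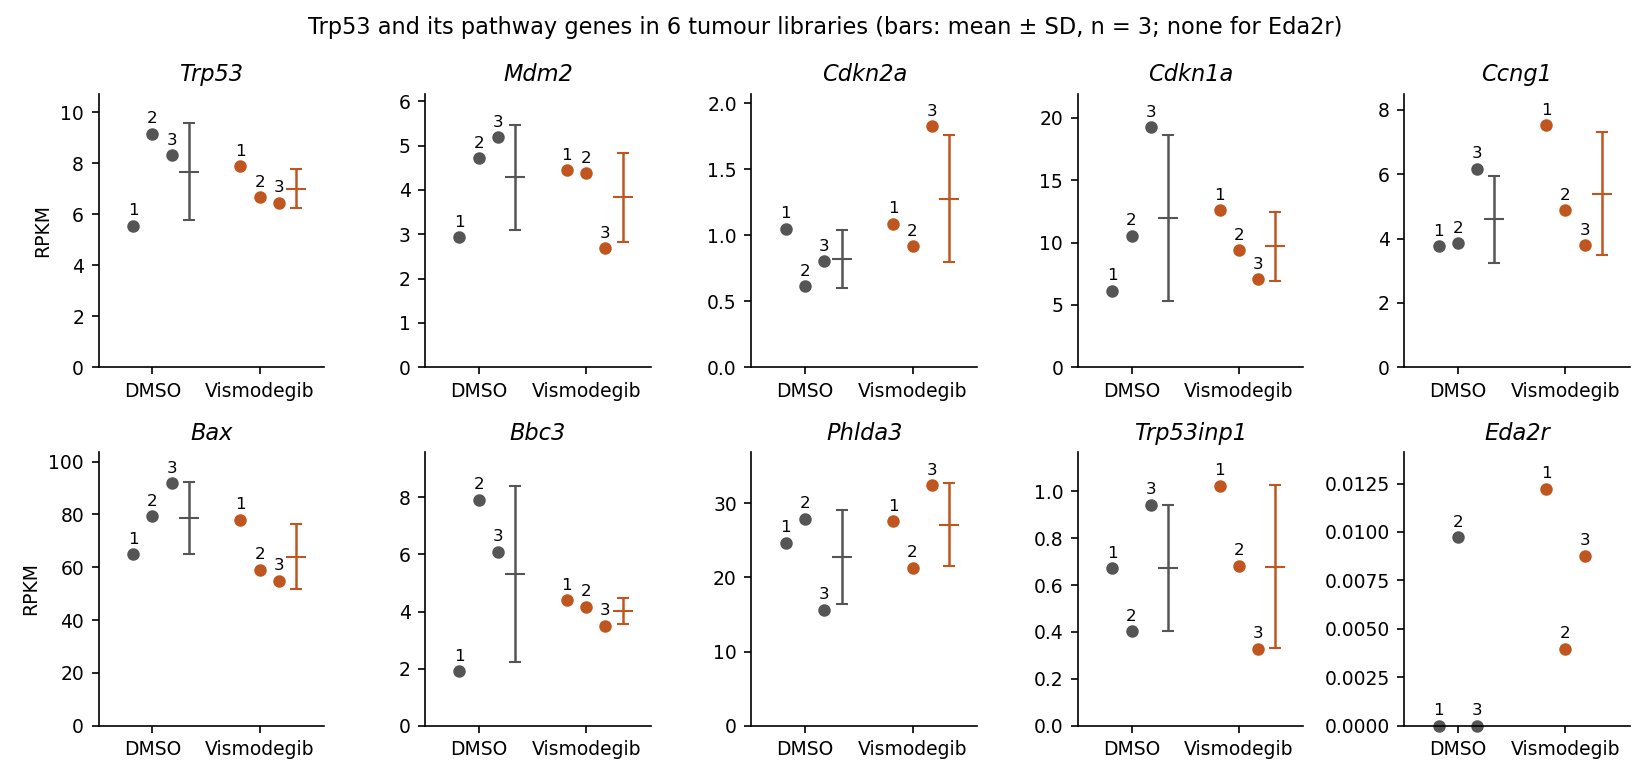
RPKM (y axis, linear, from 0, with its own scale in each panel) of the 10 genes in 3 DMSO and 3 Vismodegib libraries; points are libraries with their replicate number and bars the mean ± SD (n = 3), left out for Eda2r. The points of the groups overlap in all 10 panels, and Bax has the highest values, from 54.9 to 91.9 RPKM.

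Per length of gene, Bax was the most abundant of the 10 transcripts, with a mean over the 6 libraries of 71.3 RPKM, above 94.2% of the tested genes. Phlda3 followed at 24.9 RPKM, Cdkn1a at 10.8, Trp53 at 7.33, Ccng1 at 4.998, Bbc3 at 4.66, Mdm2 at 4.06, Cdkn2a at 1.05 and Trp53inp1 at 0.676 RPKM, which lay above 5.83% of the tested genes. The ranges over libraries separated Bax from Phlda3, Mdm2 from Cdkn2a, and Trp53inp1 from Eda2r. Every other pair of neighbours in this order overlapped in range.

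Trp53 itself (ENSMUSG00000059552.13, chromosome 11, 69580359 to 69591873, plus strand) gave 5.54, 9.16 and 8.31 RPKM in the DMSO libraries, listed here and for every gene as replicates 1 to 3, and 7.89, 6.66 and 6.45 RPKM in the Vismodegib libraries. All 3 treated libraries lay inside the range set by the controls. The control mean was 7.67 RPKM, and the SD was 1.89 RPKM among controls and 0.774 RPKM among treated libraries (n = 3 each). Vismodegib minus DMSO gave -0.10 on the log2 scale (95% interval -0.72 to 0.52), a ratio of 0.933 with an interval from 0.609 to 1.43 (limma, adjusted p = 1). The difference was 0.03 without DMSO replicate 2. A processed pseudogene, Trp53-ps, is annotated, and reads from it could not be told apart from Trp53 where the sequences are identical.

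Among the 10 genes, Mdm2 and Cdkn2a act on p53 stability. Mdm2 (chromosome 10, 117688875 to 117710758, minus strand) gave 2.93, 4.72 and 5.19 RPKM in the controls and 4.44, 4.37 and 2.68 RPKM after treatment. DMSO replicate 1 and Vismodegib replicate 3 were the low libraries, and the remaining 4 lay within 4.37 to 5.19 RPKM. Its log2 difference was -0.14 (interval -0.84 to 0.56), 0.01 without DMSO replicate 3 and 0.07 without Vismodegib replicate 3. The ratio of Mdm2 to Trp53 RPKM, a pair linked by feedback, was 0.556 ± 0.0601 in DMSO and 0.545 ± 0.122 in Vismodegib (n = 3 each), with the lowest ratio, 0.415, in Vismodegib replicate 3 and the highest, 0.657, in Vismodegib replicate 2. An exact permutation test of this ratio, which was chosen after the values were seen, gave p = 1.

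Cdkn2a encodes the CDK inhibitor p16Ink4a and, from another start site and reading frame, the Mdm2 inhibitor p19Arf; the start sites lie 12427 bases apart (chromosome 4, gene span 89274471 to 89294653, minus strand), and 1 row of the table covers both products. Cdkn2a measured 1.05, 0.612 and 0.802 RPKM in the controls and 1.09, 0.919 and 1.82 RPKM after treatment. Vismodegib replicate 3 stood above the other 5 libraries, and Vismodegib replicate 2 fell between the controls. The log2 difference was 0.41, with an interval from -0.24 to 1.05, an unadjusted p of 0.185 and an adjusted p of 1 by limma. It was 0.20 without Vismodegib replicate 3, 0.55 with a pseudocount of 0.1 and 0.25 with library weights. No other of the 9 differences was farther from 0 in this fit, but that of Bax was with median-ratio scaling (-0.38, against 0.35) and with quantile normalization (-0.36, against 0.31). For the longest annotated transcript of 895 bases these values rest on 19.1 to 94.7 reads per library, the fewest of the 9 genes.

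Cdkn1a, the p21 inhibitor of cyclin-dependent kinases and a well known p53 target, spread more within the control group than between the groups. It measured 6.14, 10.55 and 19.3 RPKM in the controls and 12.6, 9.40 and 7.04 RPKM after treatment (ENSMUSG00000023067.14, chromosome 17, 29090976 to 29100727, plus strand). The lowest and the highest libraries were both controls, 3.14 times apart. An unnamed transcript, AC167363.2, is annotated over 1046 bases of the gene on the other strand, and its reads cannot be told apart where strand was not used. The means were 12.0 ± 6.68 and 9.69 ± 2.80 RPKM, with a log2 difference of -0.19 and an interval from -1.12 to 0.75. Its sign turned on single libraries, with 0.21 when DMSO replicate 3 was left out, 0.01 when Vismodegib replicate 3 was, and -0.57 when DMSO replicate 1 was. Library weights estimated by limma, 7.28 for DMSO replicate 3 and 0.319 and 0.316 for DMSO replicates 1 and 2, gave -0.82 (adjusted p = 0.102).

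Beside Cdkn1a, the summed RPKM of 9 neutrophil markers was 25.04, 80.7 and 220.7 in the controls and 103.1, 108.5 and 15.6 after treatment. The library with the highest Cdkn1a, DMSO replicate 3, had the highest neutrophil sum, and the 2 libraries with the lowest Cdkn1a, DMSO replicate 1 and Vismodegib replicate 3, had the lowest sums. Between these the order differed: Vismodegib replicate 2 had less Cdkn1a than DMSO replicate 2 but a higher neutrophil sum. S100a8 and S100a9 made up 61.2 and 128.5 of the 220.7 in DMSO replicate 3. Macrophage markers, another myeloid list, had their highest sums in DMSO replicate 1 (2181) and Vismodegib replicate 3 (2765). Most of each sum was C1qa alone, at 1722 and 2284 RPKM. Singly these markers differed. Aif1 was also highest in these libraries (37.0 and 35.0 RPKM), while Cd68 was lower there (8.65 and 6.21) than in DMSO replicate 2 (20.9). All 9 neutrophil markers were above 0 in at least 1 library, and S100a9, a calcium-binding protein of neutrophils, ranged from 7.86 to 128.5 RPKM. The part of these cells in the Cdkn1a values was not tested. The genes nearest to Cdkn1a in pattern over the 6 libraries were Sgms2, a sphingomyelin synthase, Cd300lf, a receptor of myeloid cells, and Cd82, a tetraspanin that is itself listed among p53 targets, with root mean square differences of 0.124, 0.127 and 0.136 in log2 units. For Trp53 they were Ndufaf4, Rapgef1 and Cinp, at 0.0337, 0.0344 and 0.0422.

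**Figure D2:**
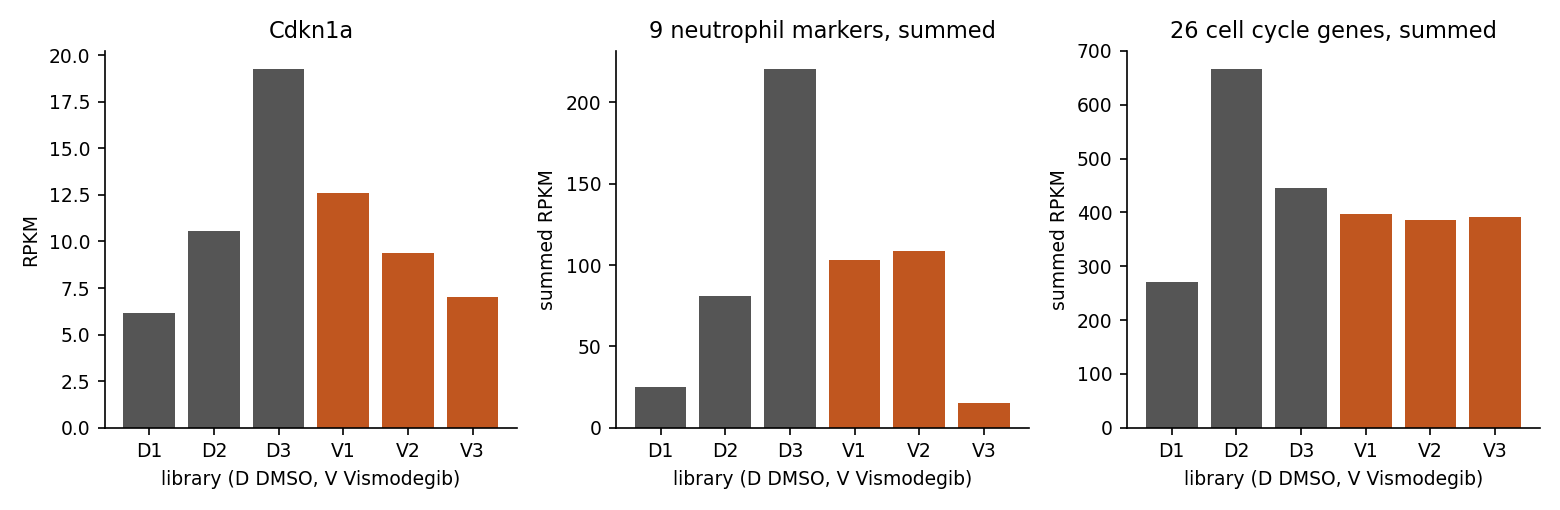
Bars from 0 give RPKM of Cdkn1a (left), the summed RPKM of 9 neutrophil markers (middle) and of 26 cell cycle genes (right) in each library, DMSO in grey and Vismodegib in orange. DMSO replicate 3 is the highest library for Cdkn1a (19.3 RPKM) and for the neutrophil sum (220.7), while the cell cycle sum is highest in DMSO replicate 2 (667).

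Ccng1, which encodes cyclin G1, a p53 target that brings a phosphatase to Mdm2, gave 3.77, 3.86 and 6.17 RPKM in the controls and 7.52, 4.88 and 3.79 RPKM after treatment. Vismodegib replicate 1 was the highest library and Vismodegib replicate 3 fell at the level of the lower controls. The log2 difference was 0.19 (interval -0.54 to 0.92). It was -0.05 without Vismodegib replicate 1 and -0.12 with library weights.

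Bax and Bbc3, which act at the mitochondrion in apoptosis, and Trp53inp1 differed in spread. Bax, the pore-forming effector of the outer mitochondrial membrane (chromosome 7, 45461697 to 45466898, minus strand), measured 64.9, 79.3 and 91.9 RPKM in the controls and 78.02, 59.05 and 54.9 RPKM after treatment. Vismodegib replicates 2 and 3 were the lowest of the 6 libraries, and Vismodegib replicate 1 lay among the controls. The annotated gene Gm45808 overlaps 915 bases of Bax on the same strand and was listed at about 0 in all 6 libraries; the sources used here do not say how reads shared by both were assigned. The means were 78.7 ± 13.5 and 64.0 ± 12.3 RPKM, with a log2 difference of -0.30 (interval -0.91 to 0.31) that stayed below 0 with each library left out, from -0.45 to -0.18. Bbc3, which encodes the BH3-only protein Puma, gave 1.90, 7.92 and 6.10 RPKM in the controls and 4.399, 4.17 and 3.51 RPKM after treatment. The controls held both the lowest and the highest value, 4.17 times apart, and the treated libraries lay between them. Its log2 difference was -0.18 (interval -1.19 to 0.83), or 0.18, 0.005 and -0.73 with DMSO replicate 2, 3 or 1 left out. Trp53inp1, a stress protein that takes part in p53 signalling and autophagy, gave 0.672, 0.403 and 0.943 RPKM in the controls and 1.02, 0.683 and 0.328 RPKM after treatment. Both ends of its range were treated libraries, and the log2 difference was -0.01 (interval -0.72 to 0.70), or 0.15, 0.22 and 0.001 with DMSO replicate 3, Vismodegib replicate 3 or DMSO replicate 1 left out.

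Against Bax, the survival genes varied by their own amounts. The ratio of Bax to Mcl1, an anti-apoptotic relative, was 1.39 ± 0.222 in DMSO and 1.49 ± 0.236 in Vismodegib, and that to Bcl2l1 was 3.305 ± 0.838 and 2.71 ± 0.977. The ratio to Bcl2 was 7.16, 96.2 and 41.02 in DMSO and 12.2, 16.96 and 10.8 in Vismodegib. Its spread among the controls followed Bcl2, which gave 9.06, 0.824 and 2.24 RPKM there, against 6.42, 3.48 and 5.07 RPKM in the treated tumours. Exact permutation tests of these 3 ratios, chosen after the values were seen, gave p = 0.6, 0.5 and 0.4.

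The signalling targets lay at opposite ends of the scale. Phlda3, a membrane-binding repressor of Akt (chromosome 1, 135766119 to 135769136, plus strand), measured 24.7, 27.9 and 15.7 RPKM in the controls and 27.6, 21.3 and 32.5 RPKM after treatment. DMSO replicate 3, the highest library for Cdkn1a, Mdm2 and Bax, was the lowest for Phlda3. The log2 difference was 0.27 (interval -0.42 to 0.96), 0.03 without DMSO replicate 3 and 0.56 with library weights (adjusted p = 0.135). Eda2r, a receptor for ectodysplasin A2 on chromosome X, was listed at 0, 0.00974 and 0 RPKM in the controls and 0.0122, 0.00397 and 0.00878 RPKM after treatment. If the smallest of these values is 1 read, they correspond to 0, 2 and 0 reads and to 3, 1 and 3 reads. No library exceeded the level of 3 reads, 0.00878 to 0.0146 RPKM, so no fold is given; the exact permutation test gave p = 0.3.

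**Figure D3:**
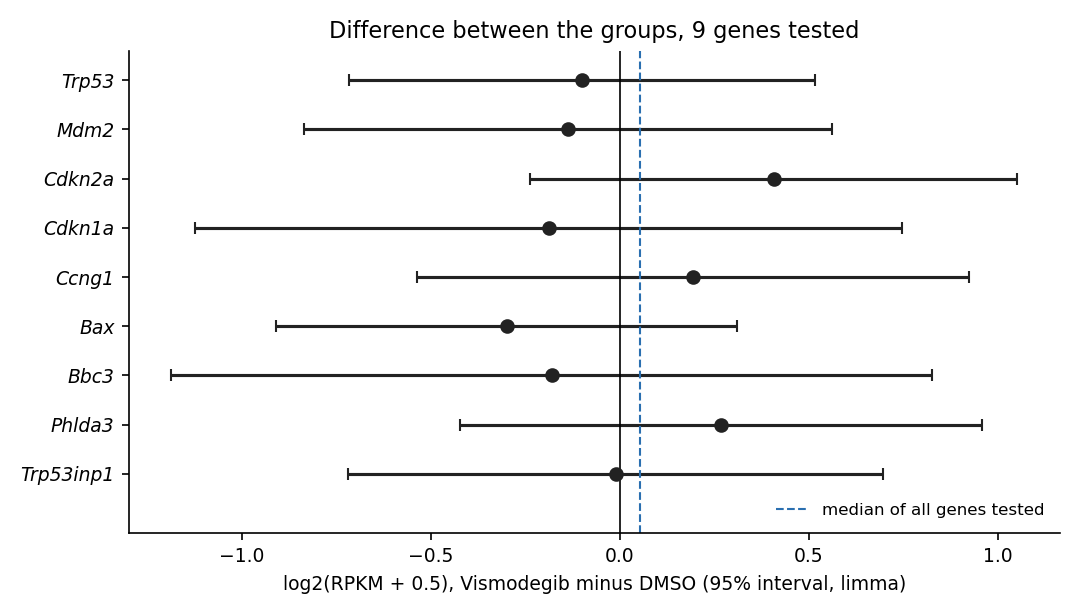
Differences in log2(RPKM + 0.5), Vismodegib minus DMSO (x axis), of the 9 genes tested, with 95% intervals from limma (bars) and the median of all tested genes (dashed line, 0.05). All 9 intervals cross 0, and Cdkn2a (0.41) and Bax (-0.30) have the largest differences on either side.

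From library to library, part of the genes deviated together. Trp53, Cdkn1a, Bax and Bbc3 lay on the same side of their means in 6 of 6 libraries, below in DMSO replicate 1 and Vismodegib replicates 2 and 3 and above in the remaining 3, and Mdm2 shared their side in 5. Ccng1 shared it in 4 libraries, Trp53inp1 and Phlda3 in 3 and Cdkn2a in 2. How many of all tested genes lay on these same sides was not counted, so the pattern is not shown to be particular to these genes. DMSO replicate 1 also had the lowest summed RPKM of the other p53 targets (448), p53 regulators (764), Rb pathway (332), apoptosis (404.5) and cell cycle lists (272). It did not for the family relatives (191, against 98.1 in DMSO replicate 2). The RPKM sum over all genes was lowest in DMSO replicate 1 too (324967) and highest in DMSO replicate 2 (432898). Abundant genes weigh most in such sums, as did Rpl5, Rpl11 and Npm1 among the regulators (137, 218 and 230 in DMSO replicate 1). Among the 9 genes tested, the pair closest in pattern was Trp53 and Bax, with a root mean square difference of 0.173 log2 units, followed by Ccng1 and Trp53inp1 (0.175, 5 libraries) and Trp53 and Mdm2 (0.186, 5 libraries). Those farthest apart were Cdkn2a and Bbc3 (0.804, 2 libraries) and Cdkn1a and Phlda3 (0.780, 3 libraries). This measure depends on the size of the deviations as well as on their pattern. From the lowest to the highest library, Trp53 and Bax spread least of the 9 (1.65 and 1.67 times), and Bbc3 and Cdkn1a most (4.17 and 3.14 times). Ndufaf4, outside the 10 genes, lay closer to Trp53 (0.0337) than Bax did. Of the 9 genes, 4 had their lowest value in DMSO replicate 1 and 3 in Vismodegib replicate 3, while DMSO replicate 3 held the highest value of 3 genes and DMSO replicate 2 and Vismodegib replicates 1 and 3 that of 2 each.

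Base composition and transcript length each went with the deviations of some libraries. The longest transcripts of Trp53inp1, Ccng1 and Eda2r had 38.8%, 40.8% and 40.9% G and C, and those of Cdkn2a, Phlda3, Bax and Bbc3 had 60.2% to 65.2%. Across genes, GC content correlated with a library's deviation from the gene mean at r = 0.294 in Vismodegib replicate 3 and 0.206 in DMSO replicate 2, while r was -0.0371 and -0.149 for DMSO replicates 1 and 3 and -0.224 and -0.351 for the treated replicates 1 and 2. For the logarithm of transcript length, r was 0.0924, -0.2 and 0.273 in DMSO replicates 1 to 3. It was 0.0203, -0.00693 and -0.0777 in the treated replicates. In Vismodegib replicate 3, Cdkn2a and Phlda3 stood 0.62 and 0.41 above their means and Trp53inp1 and Ccng1 0.47 and 0.31 below. Bax and Bbc3, also GC-rich, stood 0.35 and 0.26 below. Mdm2, Trp53 and Cdkn1a, with 46.2%, 53.3% and 54.4% G and C, deviated by -0.49, -0.15 and -0.49 in this library. The per-library trends with GC content and transcript length were removed together, so the resulting shifts cannot be assigned to either alone. After this removal, Ccng1 went from 0.19 to 0.12, Trp53 from -0.10 to -0.06 and Trp53inp1 from -0.01 to -0.11. The other differences were 0.39 for Cdkn2a, 0.27 for Phlda3, -0.32 for Bax, -0.20 for Bbc3, -0.15 for Cdkn1a and -0.14 for Mdm2, and 0 genes were called.

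**Figure D4:**
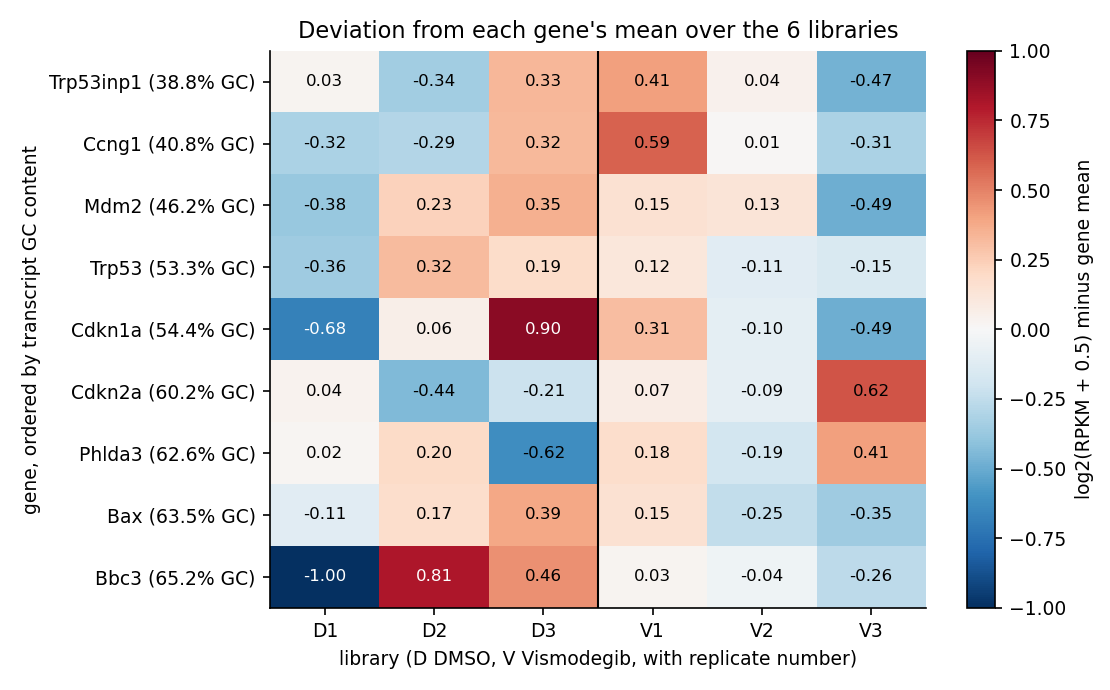
Colour and number give the deviation of log2(RPKM + 0.5) from each gene's mean over the 6 libraries, for the 9 genes tested (rows, ordered by GC content) in the DMSO (D) and Vismodegib (V) libraries (columns). Bbc3 and Cdkn1a have the widest spread, the highest deviations being 0.81 and 0.90, and both genes have their highest and their lowest library among the controls.

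Of 51 other p53 targets, 44 were tested; 0 were called, 29 lay above 0 and 15 below, and their median difference was 0.15, against 0.05 over all genes. Without DMSO replicate 1 the list's median was -0.07. The 4 most abundant members were Rps27l, Cd82, Gadd45a and Perp. Rps27l, a ribosomal protein relative, had means of 96.2 ± 22.0 RPKM in the controls and 118 ± 16.0 RPKM after treatment, Cd82 had 66.9 ± 27.6 and 55.04 ± 14.8 RPKM, and Perp, a desmosomal apoptosis effector, had 48.8 ± 18.9 and 57.6 ± 5.52 RPKM. Gadd45a, which takes part in growth arrest after DNA damage, gave 98.6, 13.2 and 22.8 RPKM in the controls and 68.8, 72.9 and 62.6 RPKM after treatment. Its highest value was in DMSO replicate 1, the library with the lowest Cdkn1a, Trp53 and Bbc3. Of the 44 genes tested, 2 had an unadjusted p under 0.05 (limma), against 2.25% of all tested genes. These were Thbs1 and Sesn2, with opposite signs, named after their values were seen. The groups did not overlap in 2 of the 44, against 5.03% of all tested genes. These were Thbs1 and Pvt1, the latter lower after treatment (log2 difference -0.29). Thbs1, the matrix protein thrombospondin-1, measured 14.6 ± 9.69 and 28.3 ± 3.74 RPKM (log2 difference 1.21, interval 0.01 to 2.41, limma, adjusted p = 1), and its groups did not overlap. Sesn2, a stress-induced inhibitor of growth signalling, measured 1.64 ± 0.710 and 0.687 ± 0.343 RPKM (log2 difference -0.83, interval -1.62 to -0.04, limma, adjusted p = 1), and its groups overlapped.

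Among 34 regulators and relatives of p53, 30 were tested, 0 were called and 17 lay above 0, with a median of 0.08. The ribosomal proteins Rpl5 and Rpl11, which can bind Mdm2, and the nucleolar protein Npm1, which binds Arf, were the most abundant, with differences of 0.10, -0.11 and 0.06, and Trim28, a corepressor, had -0.05. Of 25 CDK inhibitors and genes of the Rb pathway, 24 were tested, 0 were called and 11 lay above 0, with a median of -0.02. The cell cycle genes Cdk4, Ccnd1, Ccna2 and Myc had differences of -0.005, -0.30, -0.13 and -0.04. The groups did not overlap in 2 of the 24 genes, against 5.03% of all tested genes. These were Cdkn2b, higher after treatment, and Cdk2, lower (log2 difference -0.11). An unadjusted p under 0.05 (limma) was found in 1 of the 24, Cdkn2b, against 2.25% of all tested genes. Cdkn2b, the neighbour of Cdkn2a that encodes the CDK inhibitor p15Ink4b and was named after its values were seen, gave 0.346, 0.640 and 0.427 RPKM in the controls and 1.12, 0.892 and 0.968 RPKM after treatment. All 3 treated libraries lay above all controls, with a log2 difference of 0.63 (interval 0.08 to 1.18), which did not pass limma's test (adjusted p = 1).

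Of 29 genes of the apoptosis machinery, 28 were tested, 0 were called and 19 lay above 0, with a median of 0.07. Bok, a Bax relative, Mcl1 and Birc5, an inhibitor of apoptosis made in mitosis, had differences of 0.07, -0.40 and 0.07. An unadjusted p under 0.05 (limma) was found in 1 of the 28 genes, against 2.25% of all tested genes. Bik, a BH3-only protein, was the 1 gene of this list with an unadjusted p under 0.05 and was named after its values were seen (log2 difference 1.07, interval 0.03 to 2.12, limma, adjusted p = 1). All 26 cell cycle genes that p53 is known to repress through p21 were tested, 0 were called, and 22 lay below 0 with a median of -0.16. Their most abundant members Ube2c, Cdc20, Pcna and Plk1 had differences of -0.18, -0.27, 0.10 and -0.02. The summed RPKM of the 26 was 272, 667 and 446 in DMSO and 396, 387 and 392 in Vismodegib, so that the treated libraries lay close together between the controls. Leaving out DMSO replicate 2 gave a median of 0.14, and leaving out DMSO replicate 1 gave -0.49. Of 8 family relatives of the 9 pathway genes, 7 were tested and 5 lay above 0, with a median of 0.43 and 0 called; Phlda1, Ltbr, Ccni and Phlda2, the most abundant, had differences of 0.79, -0.02, 0.77 and 0.43. Leaving out DMSO replicate 2 took the median of these relatives to 0.13, and leaving out Vismodegib replicate 1 took it to 0.23.

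**Figure D5:**
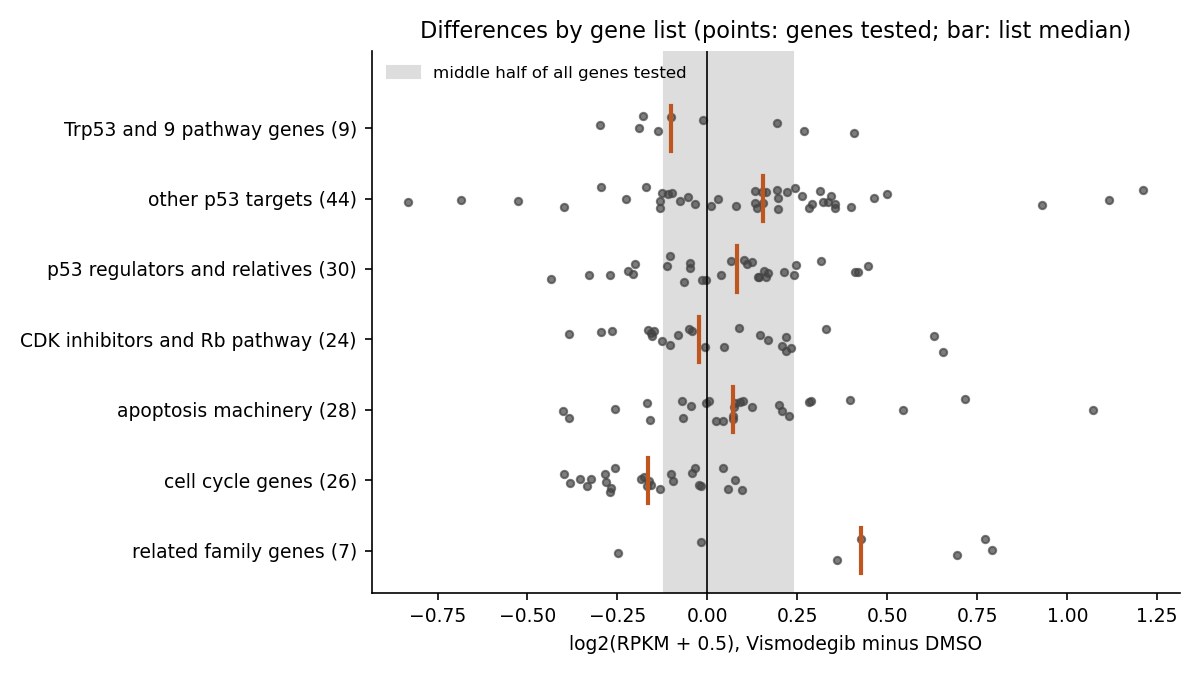
Points are differences in log2(RPKM + 0.5), Vismodegib minus DMSO (x axis), of the genes tested in each list, with their number in brackets; orange bars are list medians and the grey band holds the middle 50% of all genes tested. The list medians lie between -0.16 for cell cycle genes and 0.43 for the related family genes.

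The marker lists put these values beside the make-up of the tumours. Epithelial markers of the carcinoma were high in all 6 libraries, with a summed RPKM of 1878 to 3134 in DMSO and 2936 to 3081 in Vismodegib. The lowest epithelial sum was in DMSO replicate 1, where the RPKM sum of all genes was also lowest. Macrophage marker sums were 1246 to 2181 in DMSO and 822 to 2765 in Vismodegib. C1qa alone gave 810 to 1722 and 606 to 2284 RPKM of these. Sums ranged from 95.8 to 124.5 and 118 to 235 for fibroblast, 31.4 to 52.3 and 24.4 to 36.5 for lymphocyte, 32.3 to 47.1 and 32.3 to 59.6 for endothelial, 7.87 to 16.9 and 10.6 to 50.9 for adipocyte, and 10.03 to 184 and 84.5 to 179.6 for skeletal muscle markers, and 0 markers were at 0 in all libraries. Gene by gene, differences lay above 0 in 8 of 10 epithelial markers tested (median 0.72), with Krt18 and Krt8, the most abundant, at -0.06 and -0.23. They lay above 0 in 9 of 9 fibroblast (median 0.74), 5 of 5 endothelial (0.33), 6 of 6 adipocyte (1.34) and 8 of 8 muscle markers (1.65). They did so in 4 of 10 macrophage (-0.17), 3 of 7 lymphocyte (-0.16) and 0 of 7 neutrophil markers (-0.45). Of these markers 0 were called by limma. An unadjusted p under 0.05 was found in 4 of 10 epithelial, 4 of 9 fibroblast, 4 of 6 adipocyte, 1 of 8 muscle and 1 of 10 macrophage markers. All of these were higher after treatment, and no neutrophil, lymphocyte or endothelial marker had such a p. Over all tested genes, 266 (2.25%) did. With median-ratio or quantile scaling 8 of 9 fibroblast markers lay above 0, and the other medians kept their sign. Leaving out DMSO replicate 3 turned the neutrophil median to 0.26 and leaving out Vismodegib replicate 3 to 0.06, and leaving out Vismodegib replicate 2 turned the macrophage median to 0.15. With each library left out in turn, the other medians kept their sign, from 0.48 to 0.98 for epithelial, 0.63 to 1.01 for fibroblast, 0.05 to 0.63 for endothelial, 1.03 to 2.11 for adipocyte, 0.78 to 2.78 for muscle and -0.22 to -0.03 for lymphocyte markers. The part of these cells in the values of the 10 genes was not tested.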

How the data were processed

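Tumour RNA in 3 DMSO and 3 Vismodegib libraries was analysed, grouped by title. The authors deposited RPKM values on mm10, and the submitters' processing notes name Partek, STAR, HISAT2, cutadapt, SAMtools and bcl2fastq 2.17. Which of these did what, which annotation served and whether strand was used is not given in the sources used here. Scaling to the library total lets other genes' RNA move a gene's RPKM. Totals came from the value steps of 7010 genes with 1 transcript in GENCODE M21 (same build); 84.1% to 85.4% of values up to 20 reads were whole within 0.02 reads, which a total too high by a whole factor would also give. Read limits cover counting error only.

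Genes whose mean reached 0.5 RPKM were tested on log2(RPKM + 0.5), which understates changes of low genes, with limma 3.58.1 in R 4.3.3 (trend, group only, two-sided, Benjamini-Hochberg over 11818 genes). The steps were tested on simulated data. All 10 genes are named; of each other list, the 4 tested genes with the highest mean, the 3 genes nearest to Trp53 and Cdkn1a in pattern, and any called gene; 1 gene that this rule names is not reported here. The genes and lists were chosen with earlier results of these data known. Alternatives covered pseudocount, filter, scaling, variance estimation, library weights, a replicate block, each library left out and, chosen after seeing the data, removal of GC and length trends (11613 genes). GENCODE M21 gave gene positions, lengths and GC content, from the longest transcript.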

Additional observations from a re-analysis of the deposited data

How the results depend on the processing

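No alternative brought any of the 9 genes tested past the threshold; the smallest adjusted p was 0.102, for Cdkn1a with library weights. Over all genes, 420 were called with library weights (306 higher, 114 lower), 1 with the replicate block, and 0 to 19 with each library left out, the 19 without DMSO replicate 1; the cause was not tested. Of 152 values of the 9 genes under alternatives, 140 kept their direction and 12 changed sign; Trp53inp1, with a mean of 0.676 RPKM, was not tested with the filter of at least 1 RPKM. Sign changes came with a library left out, where the log2 differences ran from -0.30 to 0.035 for Trp53, from -0.57 to 0.21 for Cdkn1a, from -0.36 to 0.071 for Mdm2, from -0.054 to 0.40 for Ccng1, from -0.73 to 0.18 for Bbc3 and from -0.22 to 0.22 for Trp53inp1, and with library weights for Ccng1 (-0.12). Cdkn2a, Phlda3 and Bax kept their sign in every alternative run. Median-ratio and quantile scaling shifted the median of all genes from 0.05 to -0.01 and -0.02. The labels give no pairing, and the shared replicate number was not taken as one. Correlations of deviations across genes were 0.00317, 0.0379 and -0.305 for same-numbered replicates 1, 2 and 3. For differently numbered libraries they ran from -0.231 to 0.303, so these correlations cannot show whether libraries were paired. With a library left out, list medians ran from -0.07 to 0.24 for other p53 targets, -0.007 to 0.15 for regulators, -0.07 to 0.07 for CDK inhibitors and the Rb pathway, -0.004 to 0.15 for apoptosis genes, -0.49 to 0.14 for cell cycle genes and 0.13 to 0.64 for family relatives.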
